A study of Mus musculus with 8 samples.

Results

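Lysosomal cathepsins, the subunits of the vacuolar proton pump and the membrane proteins Lamp1 and Lamp2 were followed in cultured mouse eosinophils under type 1 and type 2 cytokines. Members were all protein-coding genes of the count table whose symbol was a cathepsin (Cts and 1 letter), a pump subunit (Atp6v0 or Atp6v1), an accessory pump subunit (Atp6ap1, Atp6ap2), Lamp1 or Lamp2. These were 33 of 15917 genes, namely 13 cathepsins, 18 pump and accessory subunits and 2 Lamp genes, and all 33 passed the filter on low counts. Another 12 genes that fit the names (Atp6v0a4, Atp6v0e2, Atp6v1b1, Atp6v1c2, Atp6v1e2, Atp6v1fnb, Atp6v1g3, Ctsf, Ctsj, Ctsm, Ctsq and Ctsr) were not analysed here.

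The libraries were made from mRNA of blood eosinophils of IL-5 transgenic C57BL/6 mice (line NJ.1638), which the genotype label calls WT. The transgene was thus shared by all groups, and the cells had matured under excess IL-5. Cells positive for CD90 or B220 were depleted with magnetic beads to a purity above 97%, and the rest was cultured for 18 h. There were 4 groups of 2 libraries. E1 eosinophils received IFN-γ and TNF-α at 15 ng/mL, and CN eosinophils of the same first experiment received no cytokine. E2 eosinophils received IL-4, GM-CSF and IL-5 at 10 ng/mL together with IL-33 at 30 ng/mL, and E0 eosinophils of the second experiment received IL-5 alone at 10 ng/mL. Ages are not given in the labels, nor whether separate animals or cultures gave the 2 libraries of each group, so p-values measure only the spread between these libraries.

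Cathepsins are proteases that work inside lysosomes, most of them only at acid pH. The acid is supplied by the vacuolar proton pump, in which a cytosolic V1 head splits ATP and turns a rotor within the membrane-bound V0 part, through which protons pass. Lamp1 and Lamp2 are heavily glycosylated proteins that line the lysosomal membrane from inside. Genes of all these kinds often carry E-box motifs of the CLEAR type, which the transcription factors Tfeb, Tfe3 and Mitf bind. Eosinophil granules are themselves related to lysosomes.

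Library totals ran from 60809057 to 95065752 counts. Levels are counts scaled to the library totals with TMM (CPM), where 3 counts in 1 library correspond to 0.0316 to 0.0493 CPM. These floors cover counting error only. All 11 eosinophil markers were present, with summed levels of 5762 to 6587 CPM in E1 and 7349 to 7589 CPM in CN, and of 4343 to 4398 CPM in E2 and 6713 to 6802 CPM in E0. In each group replicate 1 carried Y-linked transcripts (Ddx3y at 62.5 to 95.6 CPM) and replicate 2 carried Xist (796 to 1142 CPM), so the 2 libraries of a group did not come from the same animals and the spread within every group includes a difference of sex. A fit with the replicate number as a term called more genes in each comparison, some members described here as not passing among them. Atp6ap1, Atp6ap2 and Lamp2 lie on the X chromosome. Fits with 1 library left out compare groups unequal in sex and have fewer libraries. A call lost in such a fit therefore does not show that it rested on that library.

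In E1 eosinophils the cathepsins that passed the test were all higher than in CN eosinophils. Of 13 cathepsins, 6 rose (Ctsa, Ctsc, Ctse, Ctso, Ctss and Ctsz), 0 fell and 7 did not pass the test, whereas 17.3% of all genes tested were called in this comparison, 9.19% higher and 8.08% lower. The threshold for a call was 0.05 in the adjusted p (Benjamini-Hochberg) of edgeR's quasi-likelihood test, run on 15913 genes. The median log2 fold change of the 13 cathepsins was 0.46, against -0.01 for all genes tested.

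In E2 eosinophils the cathepsins went mostly the other way relative to E0. Of 13, 6 fell (Ctsa, Ctsb, Ctsd, Ctse, Ctsl and Ctss), 2 rose (Ctsc and Ctsz) and 5 did not pass, while 35.5% of all genes were called, 17% higher and 18.5% lower. The median log2 fold change was -0.51, against -0.02 for all genes. The 2 contrasts share no library, and the test of their difference, (E2 minus E0) minus (E1 minus CN), called 6 cathepsins lower (Ctsa, Ctsb, Ctsd, Ctse, Ctso and Ctss) and 0 higher. Of all genes, 25.2% were called in that test, 11.3% higher and 14% lower.

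**Figure D1:**
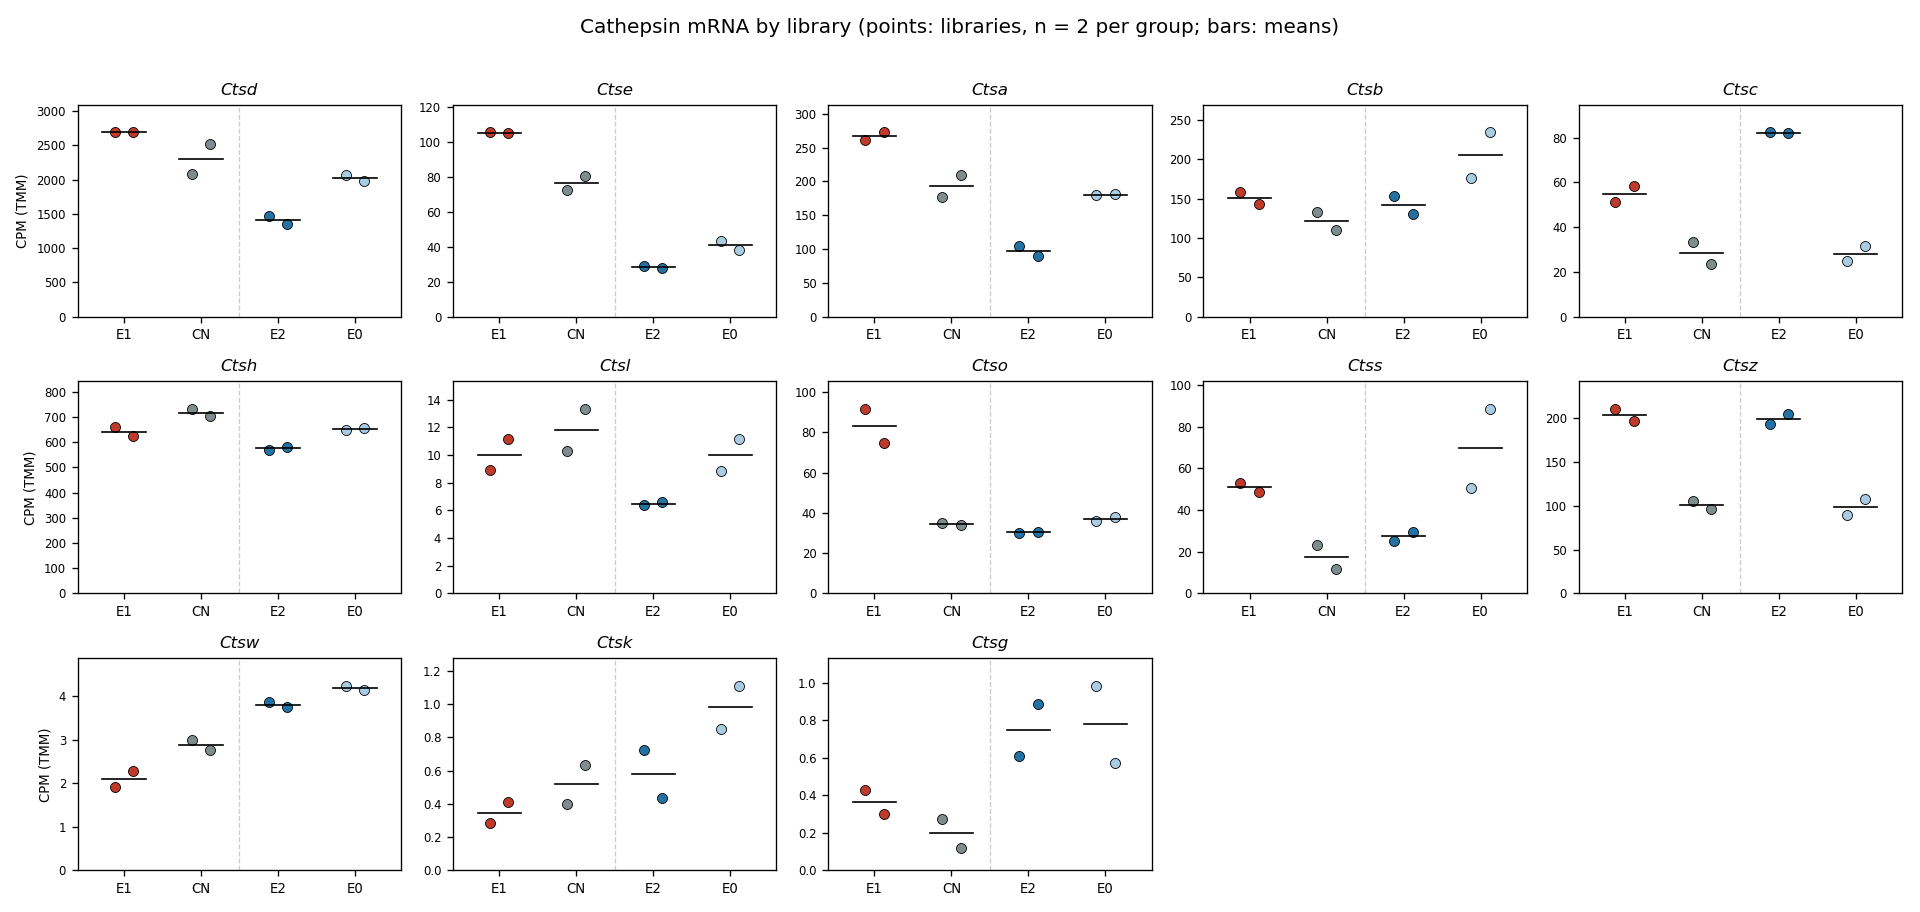
Level of each of the 13 cathepsin genes in CPM with TMM scaling, with 1 panel per gene and its own linear axis from 0. Points are libraries (n = 2 per group), bars are means, and the dashed line parts the first experiment (E1, CN) from the second (E2, E0). Ctsc and Ctsz are high in both E1 and E2, whereas Ctsa, Ctse and Ctss are high in E1 relative to CN and low in E2 relative to E0.

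Among the cysteine cathepsins, Ctss and Ctso had the largest rises in E1. Ctss, the protease that trims the invariant chain of MHC class II in antigen-presenting cells, lies at chr3:95526786-95556403 on the plus strand (mm10). It had 53.0 and 48.8 CPM in E1 libraries, against 23.1 and 11.5 CPM in CN libraries. Both E1 libraries lay above both CN libraries, and the spread was wider within CN than within E1. The log2 fold change was 1.55 ± 0.34 (SE, adjusted p = 0.0148, edgeR). In the second experiment Ctss had 25.4 and 29.6 CPM in E2 libraries, against 50.7 and 88.4 CPM in E0 libraries. Here both E2 libraries lay below both E0 libraries, with a log2 fold change of -1.34 ± 0.33 (adjusted p = 0.0156, edgeR). The responses differed by -2.89 ± 0.47 on the log2 scale (adjusted p = 0.00312, edgeR).

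Ctss was among the members whose calls were lost in some fits with 1 library left out. Without E1 replicate 1 the adjusted p of its rise was 0.0548, and without CN replicate 1 the log2 fold change became 2.16. Its fall in E2 had an adjusted p of 0.0900 without E0 replicate 2, of 0.0974 without E2 replicate 1 and of 0.0665 without E2 replicate 2 (edgeR). The test of the difference between responses stayed below the threshold with each of the 8 libraries left out in turn.

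Ctso, a papain-like cysteine cathepsin that is little characterised, lies at chr3:81932601-81956725 on the plus strand. It had 91.6 and 74.8 CPM in E1 libraries, against 34.8 and 33.9 CPM in CN libraries, a log2 fold change of 1.28 ± 0.10 (adjusted p = 7.92e-05, edgeR). In E2 libraries it had 30.2 and 30.4 CPM, against 35.8 and 38.2 CPM in E0 libraries, which did not pass (adjusted p = 0.0628, edgeR). Both E2 libraries still lay below both E0 libraries, and some of the alternative fits, DESeq2 among them, called this fall. The larger change of this gene was in E1, and the responses differed by -1.56 ± 0.15 on the log2 scale (adjusted p = 0.000184, edgeR).

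Promoters are shown for Ctso and Ctss because they are the 2 of 10 cathepsin windows that hold the core of the interferon-stimulated response element, searched as GAAA and GAAA parted by 2 bases. Each window runs from 250 bases before to 50 after the start site in RefSeq (GRCm38.p6) and was searched on both strands, and 23 of 33 members had an entry. The same motif stands in 3.44% of all 32851 windows of this length. Among the other members it was found in Lamp1 and in Atp6v1d, the latter 1 of 15 pump windows. Atp6v1d was not called in E1 and rose in E2. Capitals mark the motif. In Ctso (chr3:81932351-81932650, plus strand) it is matched by 2 overlapping copies at bases 16 to 31 after the start, and in Ctss (chr3:95526536-95526835, plus strand) at bases 21 to 12 before it.
Ctso: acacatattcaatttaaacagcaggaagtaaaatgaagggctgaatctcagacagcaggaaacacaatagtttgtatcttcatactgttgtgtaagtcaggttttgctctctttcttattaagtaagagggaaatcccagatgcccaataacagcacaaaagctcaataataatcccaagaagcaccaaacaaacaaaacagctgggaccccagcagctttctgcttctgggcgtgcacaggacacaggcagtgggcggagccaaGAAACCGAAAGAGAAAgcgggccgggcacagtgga
Ctss: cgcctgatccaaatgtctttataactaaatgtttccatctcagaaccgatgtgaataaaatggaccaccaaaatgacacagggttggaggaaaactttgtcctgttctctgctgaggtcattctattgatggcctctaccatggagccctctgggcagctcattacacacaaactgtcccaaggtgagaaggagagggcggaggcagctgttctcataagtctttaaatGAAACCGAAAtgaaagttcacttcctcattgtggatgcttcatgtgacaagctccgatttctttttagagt
A match is a description of letters and was not tested for a role in these changes.

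Ctsc and Ctsz rose under both cytokine sets. Ctsc, or dipeptidyl peptidase I, activates the serine proteases of granules and lies at chr7:88278085-88310888 on the plus strand. It had 51.3 and 58.6 CPM in E1 libraries, against 33.3 and 23.4 CPM in CN libraries, and 82.4 and 82.0 CPM in E2 libraries, against 24.8 and 31.4 CPM in E0 libraries. Neither pair of groups overlapped. The log2 fold changes were 0.96 ± 0.17 in the first experiment (adjusted p = 0.0061, edgeR) and 1.55 ± 0.18 in the second (adjusted p = 0.000401, edgeR). Their difference, 0.59 ± 0.24, did not pass (adjusted p = 0.116, edgeR), which does not show that the responses were alike.

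Ctsz, a carboxypeptidase also known as cathepsin X, lies at chr2:174427493-174439039 on the minus strand. It had 210.0 and 197 CPM in E1 libraries, against 106 and 95.7 CPM in CN libraries. In the second experiment it had 193 and 204 CPM in E2 libraries, against 89.7 and 107 CPM in E0 libraries. The level was 2.02-fold in E1 and 2.01-fold in E2 of that in the control of each, with log2 fold changes of 1.01 ± 0.09 (adjusted p = 0.000158, edgeR) and 1.01 ± 0.09 (adjusted p = 0.000148, edgeR). The difference was -0.01 ± 0.13.

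Of the other cysteine cathepsins, Ctsb and Ctsl fell in E2. Ctsb, which acts both as an endopeptidase and as a dipeptidyl carboxypeptidase, had 154 and 131 CPM in E2 libraries, against 176 and 234 CPM in E0 libraries, a log2 fold change of -0.53 ± 0.15 (adjusted p = 0.0241, edgeR). In the first experiment it had 158 and 143 CPM in E1 libraries, against 133 and 111 CPM in CN libraries, and did not pass (adjusted p = 0.211, edgeR). Ctsl, a broad endopeptidase, had 6.37 and 6.62 CPM in E2 libraries, against 8.82 and 11.2 CPM in E0 libraries (log2 fold change -0.62 ± 0.18, adjusted p = 0.0286, edgeR). Its E1 and CN libraries overlapped. The Ctsb call was lost without E0 replicate 2 (adjusted p = 0.141) or E2 replicate 2 (0.160), and the Ctsl call without E0 replicate 2 (0.156), E2 replicate 1 (0.129) or E2 replicate 2 (0.107), all by edgeR. Fdft1 overlaps Ctsb by 774 bases on the opposite strand and the strand setting of the counting is not given in the sources used here, so the Ctsb counts are uncertain to that extent.

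Ctsh, an aminopeptidase, was at 624 to 659 CPM in E1, 703 to 731 CPM in CN, 570.5 to 582 CPM in E2 and 649 to 658 CPM in E0. It was called in neither experiment (adjusted p = 0.186 and 0.0864, edgeR). The groups nevertheless did not overlap in either, and the fit with the replicate number as a term called Ctsh lower in both. Ctsw, known from NK cells and cytotoxic T cells, ranged from 1.92 to 4.23 CPM, and Ctsk, the collagen-degrading protease of osteoclasts, from 0.287 to 1.11 CPM over all 8 libraries. Neither was called in either experiment.

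Some macrophage transcripts fell in E2 alongside Ctsb, Ctsl and Ctss, while others rose, as did Ctsc and Ctsz. Of 12 monocyte and macrophage markers 11 were in the table (C1qa was not), and 7 of these fell and 4 rose in E2, while 3 fell and 3 rose in E1. The called shares were 100% in E2 and 54.5% in E1, against 35.5% and 17.3% of all genes. Apoe, a lipoprotein abundant in macrophages, had 2.13 and 2.65 CPM in E2 libraries, against 71.9 and 133 CPM in E0 libraries. It also had 2.03 and 2.04 CPM in E1 libraries, against 48.8 and 28.2 CPM in CN libraries. E0 replicate 2 was higher than E0 replicate 1, and CN replicate 1 higher than CN replicate 2, for Ctss, Ctsb and Apoe alike. Ctsl had the same order in E0 but the opposite order in CN, with 10.3 CPM in CN replicate 1 and 13.3 CPM in CN replicate 2.

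The summed level of the macrophage list was carried by other genes and ran the other way. It was 6442 to 6909 CPM in E1 and 2682 to 2989 CPM in CN, and 3604 to 3766 CPM in E2 and 2618 to 2684 CPM in E0. Ly6c2, which interferon also induces, had 4214 and 3784 CPM in E1 libraries, against 92.8 and 105 CPM in CN libraries. Without Ly6c2 the sums were 2658 to 2695 CPM in E1, 2577 to 2896 CPM in CN, 3588 to 3745 CPM in E2 and 2565 to 2646 CPM in E0. None of the 11 markers was at 0 in every library, and Mrc1 was at 0 in E1 replicate 2. Neutrophil markers (12 of 13 in the table, without Elane) summed to 1326 to 1789 CPM in E1 and 2656 to 3043 CPM in CN, and to 931 to 1323 CPM in E2 and 2774 to 3472 CPM in E0. The part of macrophages or neutrophils in the cathepsin results was not tested, and fewer cells of a type cannot be told apart from less RNA per cell in bulk samples.

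**Figure D2:**
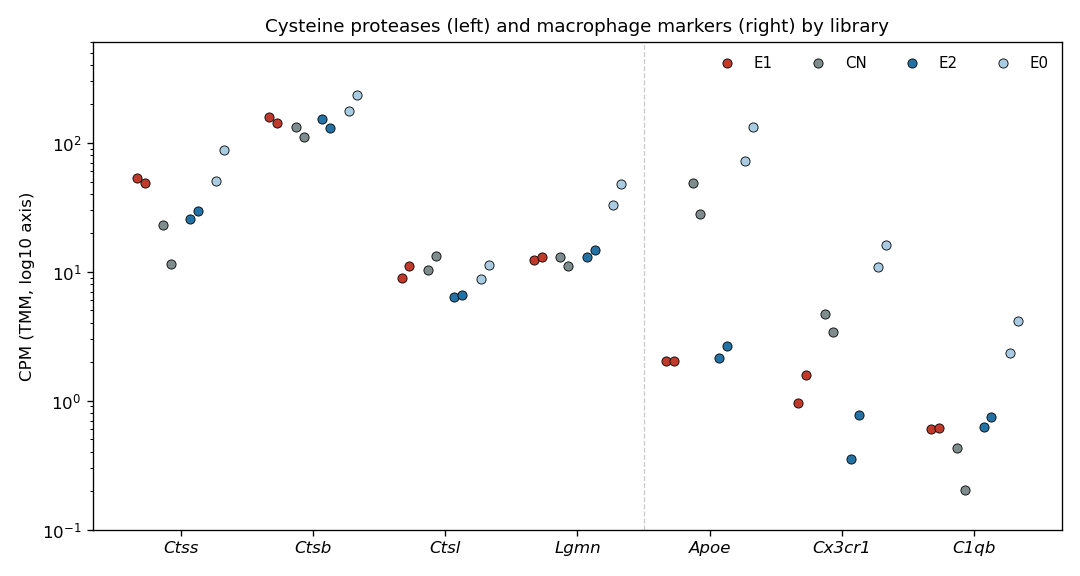
CPM with TMM scaling on a log10 axis for 4 cysteine proteases (left of the dashed line) and 3 macrophage markers (right), with each point 1 library and the groups in the order E1, CN, E2, E0. The 3 markers were picked from 11 tested, of which 7 fell and 4 rose in E2, and 3 fell and 3 rose in E1. In E0 the second library is the higher one for all 7 genes. In E1, Ctss lies above CN whereas Apoe and Cx3cr1 lie below it.

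Of the 2 aspartic cathepsins Ctse rose in E1, and both fell in E2. Ctsd, the chief aspartic protease of lysosomes, lies at chr7:142375911-142388038 on the minus strand. It had 1464 and 1349.8 CPM in E2 libraries, against 2074 and 1974 CPM in E0 libraries, a log2 fold change of -0.52 ± 0.11 (adjusted p = 0.00706, edgeR). In the first experiment it had 2694 and 2691 CPM in E1 libraries, against 2086 and 2518 CPM in CN libraries, and did not pass (adjusted p = 0.214, edgeR). These groups did not overlap, and the fit with the replicate number as a term called Ctsd higher in E1 (adjusted p = 0.0169, edgeR). The responses differed by -0.75 ± 0.15 (adjusted p = 0.00888, edgeR). The fall in E2 was not called without E2 replicate 2 (adjusted p = 0.0564, edgeR).

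Ctse, an aspartic protease of endosomes, had 105.5 and 105.0 CPM in E1 libraries, against 72.3 and 80.6 CPM in CN libraries. It had 29.2 and 27.9 CPM in E2 libraries, against 43.3 and 38.3 CPM in E0 libraries. Its log2 fold changes were 0.46 ± 0.08 (adjusted p = 0.00632, edgeR) and -0.51 ± 0.09 (adjusted p = 0.00247, edgeR), with a difference of -0.97 ± 0.12 (adjusted p = 0.000756, edgeR). These calls held with each library left out in turn.

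Of the serine cathepsins, Ctsa followed the same course. Ctsa, the carboxypeptidase that also protects β-galactosidase and neuraminidase in lysosomes, lies at chr2:164832873-164841032 on the plus strand. It had 261 and 273 CPM in E1 libraries, against 177 and 209 CPM in CN libraries (log2 fold change 0.47 ± 0.10, adjusted p = 0.013, edgeR). In the second experiment it had 105 and 89.7 CPM in E2 libraries, against 179.7 and 181 CPM in E0 libraries (log2 fold change -0.89 ± 0.10, adjusted p = 0.000368, edgeR). The responses differed by -1.36 ± 0.14 (adjusted p = 0.000298, edgeR). Pltp overlaps Ctsa by 1515 bases on the opposite strand and had up to 9.85% of its counts in a library. The Ctsa counts are uncertain to that extent. The rise in E1 was lost without CN replicate 1 (adjusted p = 0.0688) or E1 replicate 2 (0.0531), whereas the fall in E2 kept its call without any 1 library. Ctsg, the serine protease of neutrophil granules, stayed between 0.120 and 0.982 CPM in all 8 libraries and was not called.

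Ctsa has 2 windows, for different start sites. The one at chr2:164833523-164833822 (plus strand) is shown because it holds the E-box core CACGTG at 2 places close to its start site. These places are at bases 12 to 7 before that site and 6 to 11 after it. The other window (chr2:164832622-164832921), which spans the gene start given above, does not hold this core. Capitals mark the motif.
Ctsa: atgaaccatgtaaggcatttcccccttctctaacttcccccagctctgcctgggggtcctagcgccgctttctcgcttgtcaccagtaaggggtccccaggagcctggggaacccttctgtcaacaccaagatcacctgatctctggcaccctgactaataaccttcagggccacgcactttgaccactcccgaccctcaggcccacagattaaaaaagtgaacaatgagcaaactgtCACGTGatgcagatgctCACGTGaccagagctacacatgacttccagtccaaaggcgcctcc
Ctsd and Ctsl also held it, so that 3 of 10 cathepsin windows did, against 7.15% of all windows. The interferon-γ-activated site, searched as TTC and GAA parted by 3 bases on both strands, was found in the windows of Ctsc and Ctsg and in 8.30% of all windows.

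Compared per kb of exon, Ctsd led all cathepsins, with 1145 ± 0.927 CPM per kb in E1, 979 ± 129.8 in CN, 598 ± 34.2 in E2 and 861 ± 30.0 in E0 (mean ± SD, n = 2). In the sum of all 13 cathepsins it made up 70.7% and 71.6% in E1 libraries, 71.6% and 76.2% in CN libraries, 63.4% and 61.0% in E2 libraries, and 72.1% and 68.1% in E0 libraries. The next were Ctsh and Ctsz, which stood at 143 ± 5.47 and 141 ± 6.42 CPM per kb in E1 and did not differ beyond their spread there. In CN, Ctsh at 159 ± 4.42 CPM per kb lay above Ctsz at 69.9 ± 5.00. In E2 these were 128 ± 1.74 for Ctsh and 138 ± 5.65 for Ctsz, and in E0 145 ± 1.47 and 68.4 ± 8.67. The sum of the cathepsins was 1621 and 1598 CPM per kb in E1 libraries, against 1239 and 1405 in CN libraries. It was 983 and 940.5 in E2 libraries, against 1223 and 1233 in E0 libraries, so the groups did not overlap in either experiment. Without Ctsd the sum was 476 and 454 in E1 libraries, against 352 and 334 in CN libraries. In the second experiment the sum without Ctsd was 360 and 366 in E2 libraries, against 341 and 393 in E0 libraries, and these groups overlapped.

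In E1 the pump genes were called at a share near that of all genes, and in E2 at a larger share and mostly higher. In E1, 3 of 18 pump genes rose (Atp6v0c, Atp6v1e1 and Atp6v1h), 1 fell (Atp6v0a1) and 14 did not pass, so that 22.2% were called, against 17.3% of all genes. In E2, 9 rose (Atp6ap2, Atp6v0a2, Atp6v0c, Atp6v0d1, Atp6v0d2, Atp6v1a, Atp6v1d, Atp6v1e1 and Atp6v1h), 2 fell (Atp6ap1 and Atp6v1g2) and 7 did not pass, so that 61.1% were called, against 35.5% of all genes. Atp6v0d2 had 2 counts in CN and 0 in E1, so its fold change there is not given. Without it the median log2 fold change of the other 17 was 0.07 in E1 and 0.22 in E2, against -0.01 and -0.02 for all genes. The test of the difference called 2 pump genes higher (Atp6v0a1 and Atp6v1a) and 1 lower (Atp6v1g2), 16.7% of them, against 25.2% of all genes.

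**Figure D3:**
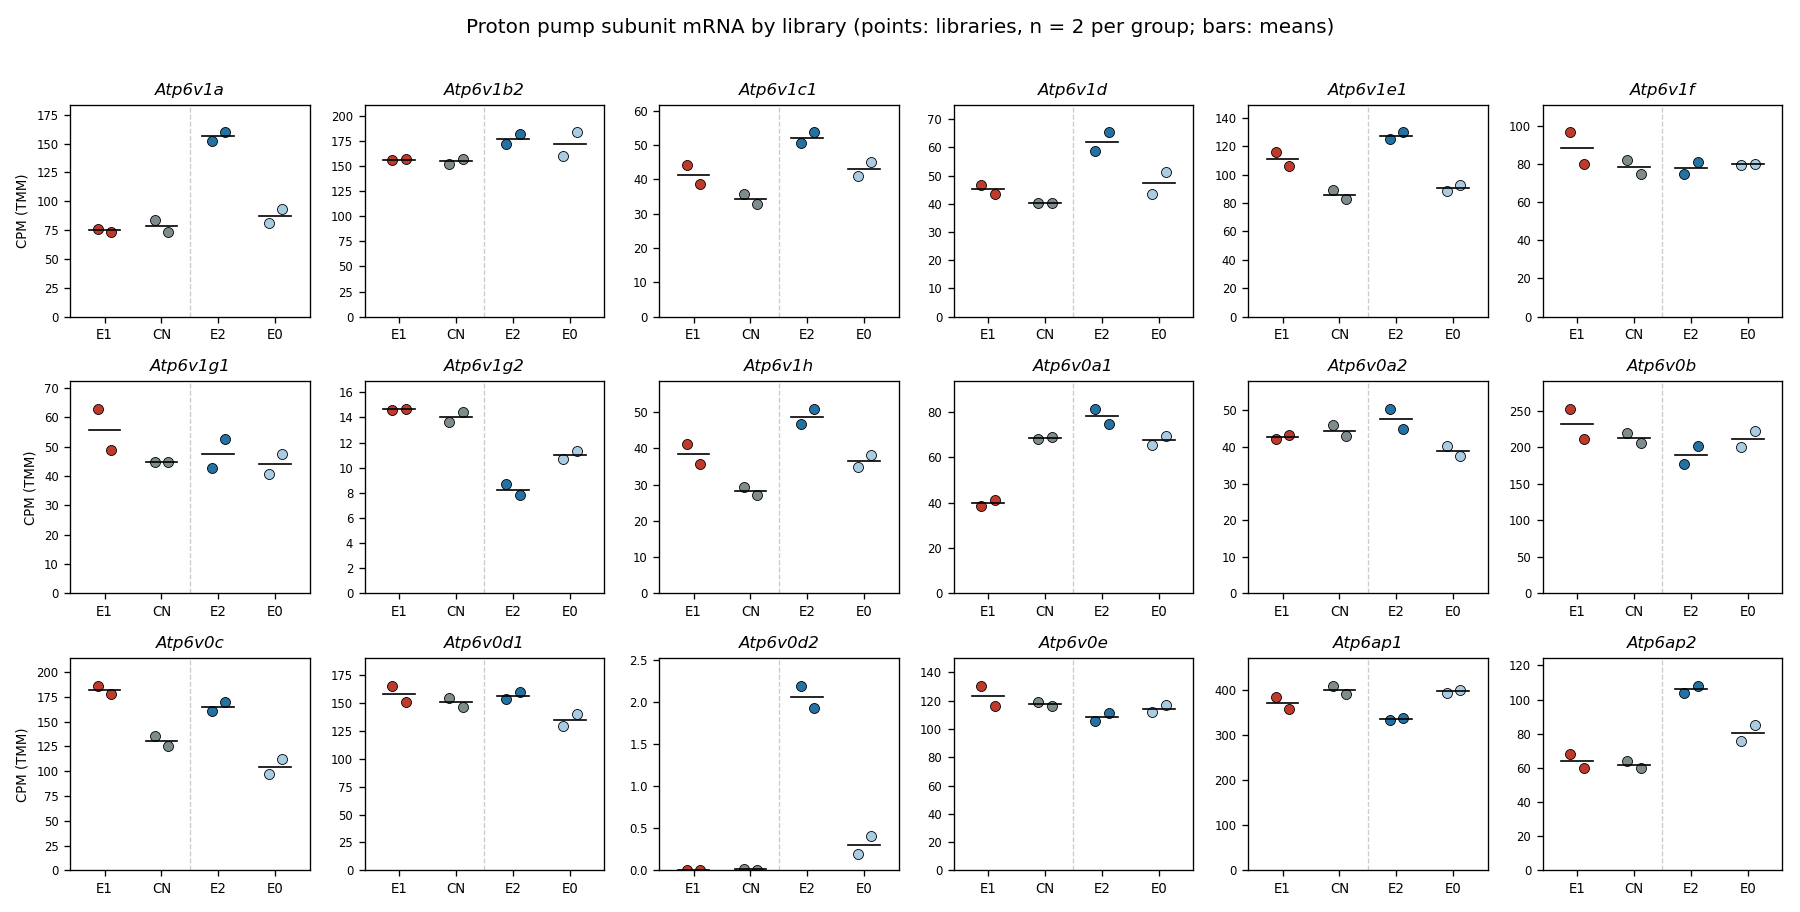
Level of each of the 18 pump and accessory subunits in CPM with TMM scaling, 1 panel per gene with its own linear axis from 0, points for libraries (n = 2 per group) and bars for means. Atp6v0a1 is low in E1 alone, Atp6v1a is high in E2 alone, and Atp6v0c, Atp6v1e1 and Atp6v1h are higher in E1 than in CN and in E2 than in E0.

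In the V1 head, subunit A (Atp6v1a) holds the catalytic sites that split ATP and alternates with subunit B in a ring. Atp6v1a lies at chr16:44085402-44139705 on the minus strand and had 152 and 159.8 CPM in E2 libraries, against 81.0 and 93.4 CPM in E0 libraries. Both E2 libraries were well above both E0 libraries, with a log2 fold change of 0.84 ± 0.09 (adjusted p = 0.000306, edgeR). In E1 libraries it had 76.3 and 73.0 CPM, against 83.5 and 73.1 CPM in CN libraries, with no call (adjusted p = 0.671, edgeR). The responses differed by 0.91 ± 0.13 (adjusted p = 0.00144, edgeR).

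Its partner Atp6v1b2 was not called in either experiment, with 156 and 157 CPM in E1 libraries, against 152 and 157 CPM in CN libraries, and 172 and 183 CPM in E2 libraries, against 160.4 and 184 CPM in E0 libraries. Per kb of exon, subunit A made up 43.8% and 43.4% of the sum of A and B2 in E2 libraries, against 30.7% and 30.8% in E0 libraries. In the first experiment its share was 30.0% and 29.0% in E1 libraries, against 32.5% and 29.0% in CN libraries.

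The promoter window of Atp6v1a (chr16:44139210-44139509, minus strand) is shown as that of the V1 subunit with the largest change, with the single CACGTG at bases 131 to 126 before the start in capitals.
Atp6v1a: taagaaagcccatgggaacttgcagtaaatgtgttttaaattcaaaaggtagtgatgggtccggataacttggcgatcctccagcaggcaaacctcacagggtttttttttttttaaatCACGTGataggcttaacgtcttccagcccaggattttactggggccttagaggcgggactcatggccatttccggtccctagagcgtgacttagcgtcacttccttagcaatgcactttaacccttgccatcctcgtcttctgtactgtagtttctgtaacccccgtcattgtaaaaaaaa
Of 15 pump windows, 4 held this E-box core (Atp6v0b, Atp6v0d1, Atp6v0e and Atp6v1a), a share of 26.7%. Of these 4 genes, Atp6v0d1 and Atp6v1a rose in E2, and none was called in E1.

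The stalk and rotor subunits of V1 changed less than Atp6v1a in E2. In E1, by contrast, Atp6v1e1 and Atp6v1h rose while Atp6v1a was not called. Subunit E1 (Atp6v1e1), part of the peripheral stalks, had 116 and 106 CPM in E1 libraries, against 89.0 and 83.1 CPM in CN libraries, and 125 and 130.0 CPM in E2 libraries, against 88.5 and 93.0 CPM in E0 libraries. Its log2 fold changes were 0.37 ± 0.07 (adjusted p = 0.00717, edgeR) and 0.49 ± 0.07 (adjusted p = 0.0011, edgeR). Subunit H (Atp6v1h), which silences ATP splitting when V1 is detached, had 41.3 and 35.6 CPM in E1 libraries, against 29.3 and 27.0 CPM in CN libraries, and 46.6 and 50.8 CPM in E2 libraries, against 34.8 and 38.1 CPM in E0 libraries. The rotor subunit D (Atp6v1d) rose in E2 by a log2 fold change of 0.39 ± 0.10 (adjusted p = 0.0175, edgeR). The other rotor subunit, Atp6v1f, stayed between 74.8 and 96.8 CPM in all libraries and was not called.

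Some of these smaller calls were lost with 1 library left out. Without CN replicate 2 the rise of Atp6v1e1 in E1 was not called (adjusted p = 0.0518), and neither was that of Atp6v1h (0.105), which was also lost without E1 replicate 1 (0.112). In E2, Atp6v1h was lost without E0 replicate 1 (0.105) or E2 replicate 2 (0.101), and Atp6v1d without E0 replicate 1 (0.120) or E2 replicate 2 (0.118), all by edgeR.

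The stalk subunits C and G showed no rise that passed. Atp6v1c1 had 44.0 and 38.5 CPM in E1 libraries, against 35.8 and 32.8 CPM in CN libraries, and 50.5 and 53.7 CPM in E2 libraries, against 41.0 and 45.0 CPM in E0 libraries. Although neither pair of groups overlapped, the adjusted p was 0.113 and 0.0616 (edgeR). Atp6v1g1 had 62.8 and 48.7 CPM in E1 libraries, against 44.9 and 45.0 CPM in CN libraries, and 42.6 and 52.5 CPM in E2 libraries, against 40.8 and 47.4 CPM in E0 libraries.

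Atp6v1g2, the G isoform known mainly from neurons, fell in E2, with 8.68 and 7.82 CPM in E2 libraries, against 10.7 and 11.4 CPM in E0 libraries (log2 fold change -0.42 ± 0.10, adjusted p = 0.014, edgeR). It had 14.6 and 14.7 CPM in E1 libraries, against 13.7 and 14.4 CPM in CN libraries. Nfkbil1 overlaps it by 2133 bases on the opposite strand and had up to 132% of its counts in a library, so the Atp6v1g2 values are uncertain. The call was lost without E0 replicate 2 (adjusted p = 0.0757) or E2 replicate 2 (0.0987), and the call of the difference with any 1 of the 8 libraries left out (0.0631 to 0.137).

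In the V0 part, subunit a forms the half-channels for protons and directs the pump to its membrane. Atp6v0a1 lies at chr11:101009452-101063719 on the plus strand and had 38.5 and 41.2 CPM in E1 libraries, against 68.2 and 69.1 CPM in CN libraries. The groups lay far apart, with a log2 fold change of -0.78 ± 0.07 (adjusted p = 0.000166, edgeR). In the second experiment it had 81.2 and 74.8 CPM in E2 libraries, against 65.3 and 69.5 CPM in E0 libraries, which did not pass (adjusted p = 0.0559, edgeR). The responses differed by 0.99 ± 0.10 (adjusted p = 0.000321, edgeR).

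Subunit a3 is encoded by Tcirg1, which the naming pattern misses and which is given here for completeness. It is the isoform of osteoclasts and of secretory lysosomes. Tcirg1 had 155 and 133 CPM in E1 libraries, against 114 and 93.7 CPM in CN libraries (log2 fold change 0.47 ± 0.11, adjusted p = 0.0239, edgeR). It had 108 and 111 CPM in E2 libraries, against 106 and 121 CPM in E0 libraries, with no call. Its rise was not called without CN replicate 2 or without E1 replicate 1, where the adjusted p was 0.116 and 0.122 (edgeR).

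Atp6v0a2, the isoform known from the Golgi, had 42.2 and 43.3 CPM in E1 libraries, against 45.9 and 43.0 CPM in CN libraries, and 50.3 and 44.8 CPM in E2 libraries, against 40.3 and 37.4 CPM in E0 libraries. The rise in E2 (0.29 ± 0.09, adjusted p = 0.0354, edgeR) was lost without E0 replicate 1 (0.0761), E0 replicate 2 (0.170) or E2 replicate 1 (0.205). Per kb of exon, a1 made up 12.8% and 15.1% of the 3 isoforms in E1 libraries, against 24.8% and 28.3% in CN libraries. The share of a3 was 73.5% and 69.4% in E1 libraries, against 59.0% and 54.6% in CN libraries. In the second experiment a1 held 28.6% and 27.1% in E2 libraries, against 25.6% and 24.9% in E0 libraries, and a3 54.1% and 57.2% in E2 libraries, against 59.1% and 62.0% in E0 libraries.

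**Figure D4:**
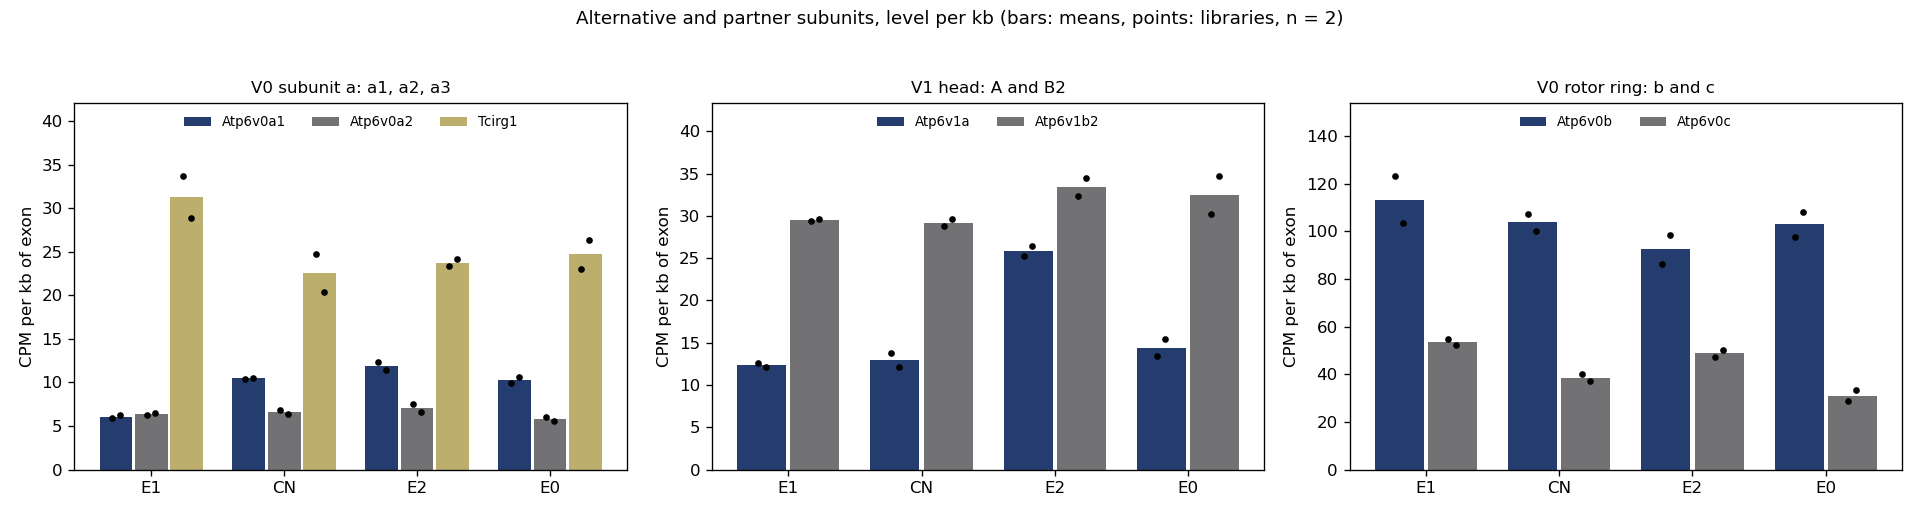
Level per kb of exon (CPM per kb, linear axis from 0) of the 3 isoforms of subunit a, of the V1 head subunits A and B2 and of the rotor-ring subunits b and c, with bars for group means and points for libraries (n = 2). Atp6v0a1 is lowest in E1, where Tcirg1 is highest, and Atp6v1a is highest in E2 while Atp6v1b2 differs little between groups.

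Subunit c (Atp6v0c), the proteolipid of the rotor ring that carries the protons, rose under both cytokine sets. It lies at chr17:24163866-24169702 on the minus strand and had 186 and 178 CPM in E1 libraries, against 136 and 125 CPM in CN libraries. It had 160.3 and 169 CPM in E2 libraries, against 97.3 and 112 CPM in E0 libraries. The log2 fold changes were 0.48 ± 0.08 (adjusted p = 0.00417, edgeR) and 0.65 ± 0.08 (adjusted p = 0.000613, edgeR), and no single library decided either. A processed pseudogene, Atp6v0c-ps2, can share its reads and had 8.80% to 9.41% as many counts as the gene in the second experiment but 0.0389% to 0.0768% in the first. With both summed, the log2 fold changes were 0.48 ± 0.08 and 0.65 ± 0.08. The related ring subunit Atp6v0b stayed between 177 and 252 CPM in all libraries and was not called, and its counts may include those of the antisense gene Gm12841.

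Subunit d joins the rotor ring to the V1 axle. Atp6v0d1 had 165 and 151 CPM in E1 libraries, against 155 and 146 CPM in CN libraries, and 153 and 159.8 CPM in E2 libraries, against 129.6 and 140.2 CPM in E0 libraries. Its rise in E2 was small (0.22 ± 0.07, adjusted p = 0.0436, edgeR) and was not called with any 1 of the 4 libraries left out (0.0642 to 0.253). The alternative isoform Atp6v0d2, known from osteoclasts and macrophages, lies at chr4:19876841-19922605 on the minus strand. It had 187 and 150 counts in E2 libraries (2.19 and 1.93 CPM), against 12 and 34 counts in E0 libraries (0.193 and 0.406 CPM). The log2 fold change was 2.75 ± 0.46 (adjusted p = 0.00382, edgeR), and it became 3.41 without E0 replicate 2. In E2 it made up 0.935% and 0.790% of subunit d per kb.

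The small subunit e (Atp6v0e) had 130.5 and 116 CPM in E1 libraries, against 119 and 117 CPM in CN libraries, and 106 and 111 CPM in E2 libraries, against 112 and 117 CPM in E0 libraries, with no call. Of the accessory subunits, Atp6ap2, the prorenin receptor, rose in E2 by 0.40 ± 0.09 (adjusted p = 0.00871, edgeR), with 104 and 108 CPM in E2 libraries, against 75.4 and 85.4 CPM in E0 libraries. Atp6ap1, an assembly factor of the pump, fell by 0.24 ± 0.07 there (adjusted p = 0.0313, edgeR), with 335 and 339 CPM in E2 libraries, against 394 and 402 CPM in E0 libraries. Neither was called in E1. Without E0 replicate 1 or E2 replicate 2 the adjusted p of Atp6ap2 was 0.0650 and 0.0660, and that of Atp6ap1 was 0.112 to 0.134 with any 1 of the 4 libraries left out (edgeR).

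Summed per kb, the pump genes had 716 and 637 CPM per kb in E1 libraries, against 647 and 615 in CN libraries, and 645 and 687 in E2 libraries, against 605 and 650.0 in E0 libraries. Both pairs of groups overlapped, although between libraries of the same replicate number E1 was above CN and E2 above E0. Atp6ap1 was the highest pump gene per kb in every group, at 123 ± 6.16 CPM per kb in E1, 132 ± 4.32 in CN, 111 ± 0.806 in E2 and 131 ± 1.84 in E0. Atp6v0b came next in each group, at 113 ± 14.0 CPM per kb in E1 and 104 ± 4.99 in CN, and the pair did not differ beyond their spread in E1. Atp6v0d2 was the lowest in each.

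Lamp1 and Lamp2 rose under both cytokine sets. Lamp1 lies at chr8:13159161-13175338 on the plus strand and had 783 and 797 CPM in E1 libraries, against 392 and 395 CPM in CN libraries, and 576 and 604 CPM in E2 libraries, against 354 and 396 CPM in E0 libraries. The libraries of a group lay close together and far from the other group, with log2 fold changes of 1.01 ± 0.08 (adjusted p = 6.9e-05, edgeR) and 0.65 ± 0.08 (adjusted p = 0.000583, edgeR). The difference of -0.35 ± 0.11 did not pass (adjusted p = 0.0529, edgeR).

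Lamp2, whose A isoform is the receptor of chaperone-mediated autophagy, had 250.3 and 239 CPM in E1 libraries, against 155 and 154 CPM in CN libraries (log2 fold change 0.66 ± 0.06, adjusted p = 0.000136, edgeR). It had 221 and 217 CPM in E2 libraries, against 186 and 195 CPM in E0 libraries (0.20 ± 0.06, adjusted p = 0.0323, edgeR). The smaller rise in E2 was lost with any 1 of its 4 libraries left out (0.0777 to 0.205). The responses of Lamp2 differed by -0.46 ± 0.09 (adjusted p = 0.00529, edgeR).

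The window of Lamp1 (chr8:13158911-13159210, plus strand) is shown because it held 4 copies of CACGTG within the 61 bases before the start, and on the minus strand 1 copy of the interferon-stimulated element core at bases 135 to 126 before it. Both are in capitals.
Lamp1: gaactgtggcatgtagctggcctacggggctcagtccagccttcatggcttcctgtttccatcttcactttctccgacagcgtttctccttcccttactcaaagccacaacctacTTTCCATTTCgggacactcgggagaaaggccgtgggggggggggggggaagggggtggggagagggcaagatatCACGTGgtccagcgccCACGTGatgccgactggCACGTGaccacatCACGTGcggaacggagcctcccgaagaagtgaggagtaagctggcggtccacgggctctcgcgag

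**Figure D5:**
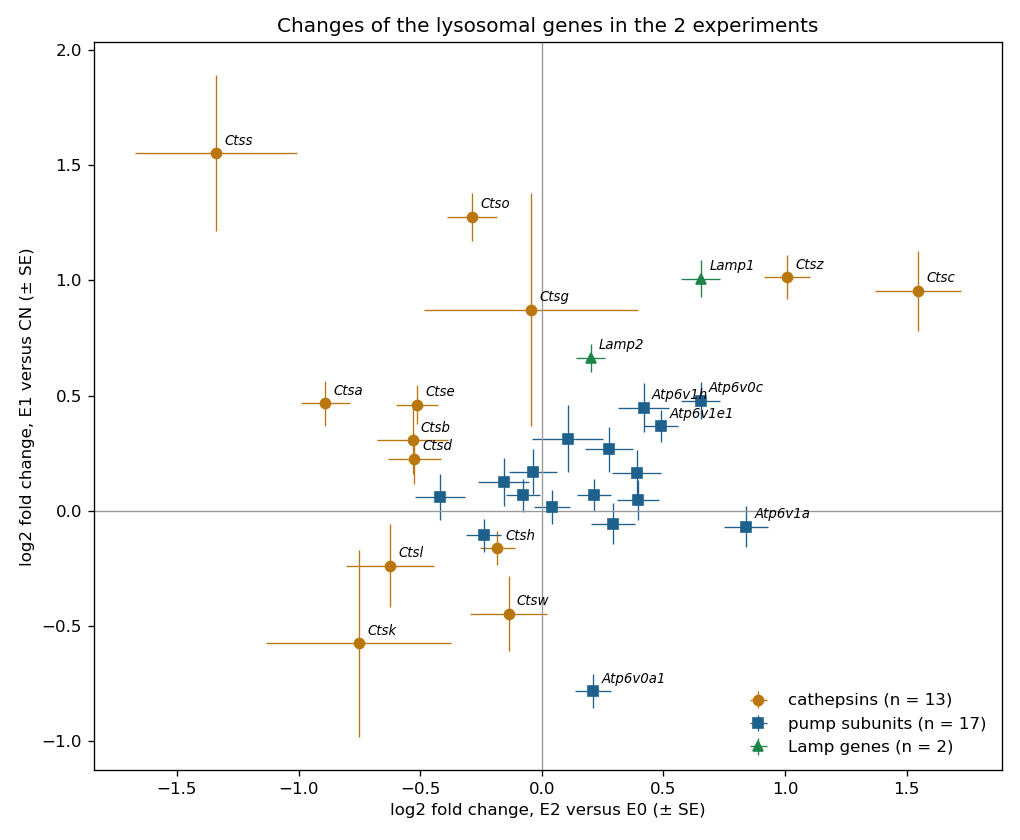
Log2 fold change (± SE) in E2 versus E0 on the horizontal axis and in E1 versus CN on the vertical axis for 32 members, without Atp6v0d2, which was at or near 0 counts in the first experiment. Circles are cathepsins, squares pump subunits and triangles Lamp genes. Ctss, Ctsa and Ctse lie at the upper left, Ctsc, Ctsz and Lamp1 at the upper right, and Atp6v0a1 and Atp6v1a each move mainly along 1 axis.

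The regulators of lysosomal genes were described from a list of 19. In E1, 2 rose and 1 fell, and in E2, 3 rose and 2 fell. The called shares were 15.8% and 26.3%, both below the 17.3% and 35.5% of all genes. Tfe3, a CLEAR-binding factor, rose in both, with 54.6 and 61.6 CPM in E1 libraries, against 33.9 and 33.8 CPM in CN libraries, and 51.9 and 50.7 CPM in E2 libraries, against 29.2 and 35.0 CPM in E0 libraries. The log2 fold changes were 0.78 ± 0.11 and 0.68 ± 0.11. Tfeb, its better known relative, was called in neither, at -0.13 ± 0.06 and -0.17 ± 0.06. Mitf had 5.42 and 8.29 CPM in E1 libraries, against 3.56 and 3.63 CPM in CN libraries (log2 fold change 0.93 ± 0.24, adjusted p = 0.0314, edgeR). It had 6.02 and 7.06 CPM in E2 libraries, against 6.00 and 8.52 CPM in E0 libraries, with no call. The rise of Mitf in E1 was lost without CN replicate 1 (adjusted p = 0.123), CN replicate 2 (0.102) or E1 replicate 2 (0.136). Tfec, the remaining member of that family, rose in E2, with 3.99 and 4.85 CPM in E2 libraries, against 0.612 and 1.48 CPM in E0 libraries (2.06 ± 0.37, adjusted p = 0.00382, edgeR), and the value became 2.85 without E0 replicate 2. In E2, Flcn and Slc38a9, which act in nutrient sensing at the lysosome, fell (-0.56 and -0.61).

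Partners of the pump outside the naming pattern numbered 18, of which 3 rose and 3 fell in E1, and 6 rose and 3 fell in E2. These are 33.3% and 50% of the list, against 17.3% and 35.5% of all genes. Clcn7, the chloride-proton exchanger of lysosomes, rose in both (0.84 and 0.30). Clcn5, its endosomal relative, fell in E1 (-0.64) and rose in E2 (0.45), as did Ncoa7 (-0.46 and 0.73), a protein that binds the V1 part. Dmxl2, a subunit of the complex that reassembles the pump, fell in E1 (-0.71), and Oxr1, a relative of Ncoa7, fell in E2 (-0.68). The assembly factor Vma21 rose in E2 (0.69).

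Cathepsin inhibitors had 10 of their listed genes in the test. In E1, 3 rose and 3 fell (60.0%, against 17.3% of all genes), and in E2, 4 rose and 3 fell (70.0%, against 35.5%). Serpina3g, an inhibitor of cysteine cathepsins that interferon induces, had 125 and 169 CPM in E1 libraries, against 0.422 and 0.349 CPM in CN libraries, and 91.4 and 77.5 CPM in E2 libraries, against 0.821 and 0.883 CPM in E0 libraries. Its close paralog Serpina3f moved with it, at 27.4 and 32.7 CPM in E1 libraries, against 0 and 0.0841 CPM in CN libraries, and reads of the 2 may have been split between them. Cst7, or cystatin F, which inhibits Ctsc, fell in E1 (-0.71) and rose in E2 (1.45). Cstb, or cystatin B, rose in both (0.55 and 0.81), and Serpinb1a, an inhibitor of granule serine proteases, fell in E1 (-2.02).

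Other lysosomal hydrolases and cofactors, 44 genes, split evenly in E1, where 9 rose and 9 fell, and in E2 12 rose and 15 fell. The called shares were 40.9% in E1 and 61.4% in E2, against 17.3% and 35.5% of all genes. Scpep1, a serine carboxypeptidase, had 143 and 131 CPM in E1 libraries, against 13.0 and 11.4 CPM in CN libraries, and 6.84 and 8.36 CPM in E2 libraries, against 12.3 and 16.9 CPM in E0 libraries. Npc2, the cholesterol carrier, rose in E1 (0.97) and fell in E2 (-0.63). Arsb, which removes sulfate from dermatan sulfate, went the other way (-1.36 in E1 and 1.88 in E2). Ifi30, the thiol reductase of antigen processing, rose in both (1.24 and 0.87). Lgmn, the asparaginyl protease that processes cathepsins, fell in E2 (-1.54) and was not called in E1 (0.08).

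Of 23 other lysosomal membrane proteins, 2 rose and 1 fell in E1, and 3 rose and 5 fell in E2, shares of 13.0% and 34.8% that lie below or near those of all genes (17.3% and 35.5%). Tmem192 rose in E1 (1.10) and fell in E2 (-0.38), and Slc11a1, the metal transporter of phagosomes also called Nramp1, rose in E2 (1.90). Of 14 genes for mannose 6-phosphate sorting, which carries hydrolases to lysosomes, 1 rose and 3 fell in E1, and 5 rose and 3 fell in E2, shares of 28.6% and 57.1%. M6pr, a mannose 6-phosphate receptor, rose in both (0.29 and 0.47), and Sort1, a receptor that takes other routes to the lysosome, fell in both (-0.81 and -0.62).

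Several of these calls were lost in fits with 1 library left out, by edgeR's adjusted p. In E1, Ncoa7, Cstb and M6pr were not called without CN replicate 2 (0.149, 0.108 and 0.0734) or without E1 replicate 1 (0.146, 0.118 and 0.0547). Cst7 was not called in E1 without CN replicate 1 (0.144) or E1 replicate 2 (0.102). In E2, Flcn was lost without E0 replicate 2 (0.0654), E2 replicate 1 (0.0515) or E2 replicate 2 (0.0880), and Ifi30 without E0 replicate 1 (0.0991), E2 replicate 1 (0.0823) or E2 replicate 2 (0.0654). Clcn7 was lost there without E0 replicate 1 (0.0935), E0 replicate 2 (0.0523) or E2 replicate 1 (0.0976), and Tmem192 with any 1 of the 4 libraries left out (0.0985 to 0.177).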

How the data were processed

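Stranded mRNA libraries (TruSeq Stranded mRNA) were read as raw counts per Ensembl gene, deposited by the authors without normalization. Per the submitters' processing notes, STAR, featureCounts and mm10 were used. Not given in the sources used here: versions, annotation, strand setting and the handling of reads with several matches. Among 15918 rows of the deposited table, 1 unnamed row held the library totals (100% of the named counts) and was left out. Symbols matched 15730 of 15917 genes, and positions and exon lengths are from GENCODE M21 on mm10.

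Count tests used edgeR 4.0.16 (R 4.3.3): filterByExpr (4 genes removed), TMM, a joint fit of the 8 libraries with group means (residual degrees of freedom: 4), and the two-sided quasi-likelihood F test with Benjamini-Hochberg adjustment over all 15913 genes. Groups were as labelled, and the comparisons were of E1 with CN, of E2 with E0, and of both changes with each other. The fit was tested on simulated data for E1 versus CN. It recovered 22.4% of 1.5-fold, 76.1% of 2-fold and 98.5% of 4-fold changes, so a gene that did not pass may still have changed. Alternatives were DESeq2 size factors, library totals alone, no filter, DESeq2 1.42.0, a replicate block, the 4 libraries of a contrast, and leaving out each library. Added after seeing the data were a fit on autosomal protein-coding genes with the members, and Atp6v0c summed with its pseudogene.

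Members and gene lists were chosen with earlier results of these data known. By rule, per-library values were given for members called with a log2 fold change of at least 0.5 either way and 1 CPM or more, and for alternative subunits. For lists, up to 3 called genes each way at 10 CPM or more could be named, and a selection of these is given. Tfeb, Mitf, Tfec and Tcirg1 and the markers Apoe, Mrc1 and Ly6c2 were named besides. Of the macrophage markers first listed, 1 is not reported here. Values per kb are CPM divided by merged exon length.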

Additional observations from a re-analysis of the deposited data

Results flagged for a closer look

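All values here are differences of log2 fold change, E2 versus E0 minus E1 versus CN, that passed edgeR's quasi-likelihood test of the difference. List genes were named because they were called in 1 contrast, so their share among these is no support for a pattern.

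Among members the differences were -2.89 for Ctss, -1.56 for Ctso, -1.36 for Ctsa, -0.97 for Ctse, -0.84 for Ctsb, -0.75 for Ctsd and -0.46 for Lamp2. They were 0.99 for Atp6v0a1, 0.91 for Atp6v1a and -0.48 for Atp6v1g2. Ctsb was not called without CN replicate 2 (adjusted p = 0.0544), E0 replicate 2 (0.0512), E1 replicate 1 (0.0532) or E2 replicate 2 (0.0818).

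Among pump partners they were -0.53 for Tcirg1, -0.53 for Clcn7, 1.09 for Clcn5, 0.67 for Dmxl2, 1.20 for Ncoa7, 1.30 for Tbc1d24, 0.54 for Vma21 and -0.58 for Oxr1. Regulators had 0.66 for Rptor, -0.67 for Slc38a9, -0.62 for Flcn, -1.08 for Mitf and 1.93 for Tfec. The call of Mitf was lost without 6 of the 8 libraries in turn (adjusted p = 0.0885 to 0.153), and that of Tfec without 6 (0.0570 to 0.126), and the value of Tfec became 2.73 without E0 replicate 2. The macrophage marker Ly6c2 had -6.66. Inhibitors had -1.94 for Serpina3g, -4.41 for Serpina3f (which was near 0 in CN and E0, so that the value depends on a few counts), 1.78 for Serpinb1a, 2.16 for Cst7 and -0.71 for Serpinb6a.

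Hydrolases and cofactors had -4.43 for Scpep1, -1.60 for Npc2, 3.25 for Arsb, 1.18 for Acp5, 0.59 for Gusb, 0.60 for Rnaset2b (a near-identical paralog of Rnaset2a, so its counts are uncertain), -1.61 for Lgmn and -0.62 for Man2b1. Membrane proteins had -1.47 for Tmem192, 0.37 for Cln3, 1.52 for Slc11a1, -1.09 for Cd68 and -1.18 for Scarb2. Sorting genes had 0.65 for Gga2, 0.52 for Gnptab, 0.63 for Gnptg and -0.54 for Nagpa. Of the list genes, Cln3 lost its call with any 1 library left out (adjusted p = 0.0574 to 0.126), and Tcirg1, Rptor, Flcn, Vma21, Serpina3f, Gusb, Rnaset2b, Man2b1, Gnptab, Gnptg and Nagpa with 1 or more of the 8 (from just above the threshold to 0.213).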

How the results depend on the processing

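No called member changed sign under any alternative (43 comparisons), whereas 18 of 56 comparisons of members that were not called did. Other named genes did not change sign in the 72 called comparisons that were followed. Most list genes were followed only in the contrast they were selected for, so their other calls are not covered by that count. Of 12 members called in E1, 8 were called under all 11 alternatives, of 21 in E2, 9 were, and of 10 in the difference, 8 were under all 14. With library totals alone the median of all genes moved by -0.09 in E1 versus CN, and the calls were 1190 higher and 1891 lower, against 1463 and 1286 with TMM. The share of higher calls moved to 53.4% from 44.7% for the difference. There, 1 cathepsin fell in E1, 1 Lamp gene rose in E2, and the difference had 4 pump genes higher and 0 lower. With the DESeq2 Wald test, and with autosomal protein-coding genes and members alone, 2 Lamp genes were lower in the difference.

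The 2 libraries of each number share only that number as far as the labels say, but every replicate 1 carried Y-linked transcripts and every replicate 2 Xist. Their deviations correlated at 0.50 between CN and E1, 0.59 between E0 and E2 and 0.12 to 0.30 between other groups. A replicate block within each experiment gave 5520 genes called in E1, 8514 in E2 and 6821 for the difference. Under the replicate block in E1, Ctsd rose (adjusted p = 0.0169, edgeR) and 1 cathepsin fell (Ctsh). In E1 7 pump genes rose under it (Atp6v1c1, Atp6v1d, Atp6v1f and Atp6v1g1 besides those named). In E2 8 cathepsins fell under it, Ctso and Ctsh besides those named. There, 11 pump genes rose (Atp6v0a1 and Atp6v1c1 in addition) and 3 fell (Atp6v0b in addition). The difference had 1 cathepsin higher (Ctsc), 5 pump genes higher and 2 lower, and 2 Lamp genes lower.

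Leaving out 1 library at a time leaves 1 group with a single library, assumed to vary like the others. Since the replicate numbers track sex, the groups compared are then also unequal in sex. It gave 1904 to 2368 genes called in E1, 3334 to 3984 in E2 (5655 with all) and 2715 to 3768 for the difference. The ranges were 1 to 3 pump genes higher in E1, and in E2 2 to 6 cathepsins lower, 4 to 7 pump genes higher, 0 to 1 lower and 1 Lamp gene higher. For the difference they were 0 to 1 cathepsins higher, 2 to 3 pump genes higher and 0 lower. The cause of these changes was not tested beyond the smaller number of libraries. Atp6v0d2, Ctsg and Ctsk are limited by low counts.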

Other observations

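The granule protein genes Prg2 and Epx were lower in E2, and were chosen after their values were seen. Prg2, the major basic protein, had 148 and 94.5 CPM in E2 libraries, against 336 and 185 CPM in E0 libraries (log2 fold change -1.10 ± 0.29, adjusted p = 0.0194, edgeR). Epx, eosinophil peroxidase, had 15.2 and 7.87 CPM in E2 libraries, against 53.1 and 23.5 CPM in E0 libraries (-1.73 ± 0.40, adjusted p = 0.0115, edgeR). Without E0 replicate 1 or E2 replicate 2 neither fall was called, with adjusted p of 0.121 and 0.127 for Prg2 (log2 fold change -0.61 without E0 replicate 1) and of 0.0611 and 0.0767 for Epx (-1.02). Neither was called in E1. Of 11 eosinophil markers, 8 fell and 2 rose in E2, and 2 fell and 0 rose in E1. The called shares were 90.9% in E2, against 35.5% of all genes, and 18.2% in E1, near the 17.3% of all genes.

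The 826 processed pseudogenes of the table, Atp6v0c-ps2 among them, held 0.0954% and 0.103% of counts in E1 libraries, against 0.0856% and 0.0910% in CN libraries. They held 0.387% and 0.396% in E2 libraries, against 0.414% and 0.417% in E0 libraries. The experiments also differ in IL-5, which E2 and E0 received and E1 and CN did not, so experiment and IL-5 cannot be told apart.

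Erythroid markers summed to 17.2 to 39.6 CPM in the 4 libraries of replicate 1 and to 0.913 to 3.50 CPM in the 4 of replicate 2.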
